A study of Cicer arietinum with 5 samples.

Results

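Valleys without listed DNA methylation were examined along the 8 chromosomes of chickpea, Ca1 to Ca8. A valley was an interval of 5 to 50 kb between consecutive positions at which a methylcytosine was listed in at least 1 of 5 libraries, so that no cytosine inside it was listed in any of them. This rule kept 2497 of 19292403 intervals of 1 base or more. The valleys were thus chosen by the absence of listed cytosines in the same libraries that are compared here, and their number and length are given as a description without a test. The data were whole genome bisulphite sequences of developing seeds of Himchana 1, a small-seeded cultivar, and the labels name no treatment. Seeds at late-embryogenesis (S3, 2 libraries) were compared with seeds at mid-maturation (S5, 3 libraries). Each library was made from DNA of a pool of whole seeds, so the embryo, the maternal seed coat and any endosperm were not measured apart. The authors state that chickpea endosperm is resorbed before S5, so stage and tissue make-up cannot be told apart here. The authors describe the replicates as independent and biological. The labels do not name separate plants for the replicates, and the spread between libraries may be technical in part.

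In plants, DNA is methylated in 3 sequence contexts, CG, CHG and CHH, in which H is A, C or T. CG methylation is copied at replication by MET1-type enzymes, CHG methylation is kept by CMT3-type enzymes together with a histone mark, and CHH methylation is laid down anew by RNA-directed DNA methylation through DRM-type enzymes and by CMT2-type enzymes. Transposable elements usually carry methylation in all contexts, whereas many transcribed genes carry CG methylation alone or none. Long stretches with little or no methylation are therefore a usual part of plant genomes and often hold genes or their regulatory sequence.

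An empty interval in these tables is not proof of unmethylated DNA. A cytosine was listed only when it had at least 5 reads and passed a binomial test for methylation, and unlisted cytosines carry no coverage. A valley may therefore be unmethylated, not covered by uniquely mapped reads, or a stretch of unknown bases in the assembly, and these cannot be told apart here. All coordinates are 1-based positions of the kabuli genome version 1, and gene annotation of that build was not used here. The libraries listed 24562750 to 27777737 methylcytosines, of which 57.5% to 61.0% lay on Ca1 to Ca8. Mean coverage of the listed cytosines of these chromosomes was 13.4 reads in S5 replicate 2 and 16.1 to 16.4 reads in the other 4 libraries.

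The valleys were between 5000 and 36618 bases long, with a median of 8233 bases and quartiles of 6007 and 10145 bases. They summed to 21.8 Mb, which was 6.28% of the 347 Mb between the first and last listed positions of the chromosomes. A length of 10 kb or more was reached by 831 valleys (33.3%), and 45 valleys were 20 kb or longer. No interval was longer than 50 kb, so the upper limit of the rule removed nothing. The lower limit cut through a falling distribution, since 4127 further intervals measured 3 to 5 kb.

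The lengths did not fall away evenly. An excess of valleys lay just above 10 kb, where 252 valleys measured from 10 kb to under 10.2 kb. The 200 bases below held 50 valleys, and the 200 bases from 10.2 kb held 108. From 10.4 kb to under 10.6 kb there were 46. Within the peak, 4 valleys were less than 20 bases longer than 10 kb and 152 were 20 to 99 bases longer, while the 80 bases below 10 kb held 16. The lengths in the peak were spread over many values, and no exact length was shared by more than 6 valleys. In what follows, the 360 valleys (14.4%) from 10 kb to under 10.4 kb are called the 10 kb class, a range chosen after the lengths were seen. Unknown bases of a set length in the assembly and unmethylated sequence cannot be told apart in this class, and every value given for it carries this limit. The peak held when a position had to be listed in at least 2 libraries, with 331 valleys in the 10 kb class against 95 in the 400 bases below.

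**Figure D1:**
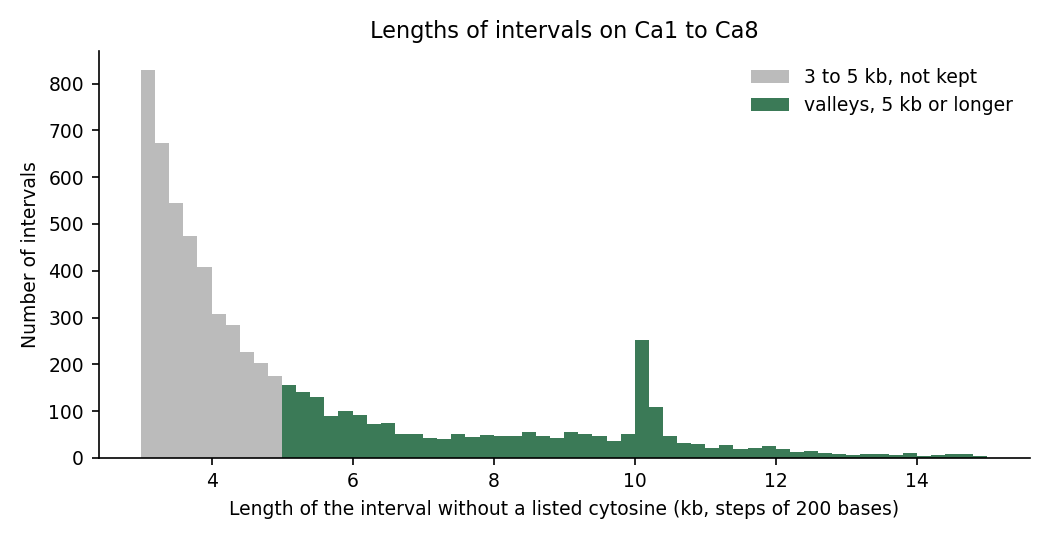
Number of intervals without a listed cytosine by length, in steps of 200 bases from 3 to 15 kb (x axis in kb, y axis number of intervals), with intervals under 5 kb in grey and valleys in green. The numbers fall from 3 kb onward, and the bar from 10 kb holds 252 valleys against 50 in the bar before it. The 122 valleys of 15 kb or longer are not drawn.

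The longest valley lay on Ca5 (18436906 to 18473523, 36618 bases), about 38.3% along the chromosome. Its left flank, the 2 kb outward of the left edge, held 481 listed positions, with CG at 92.4% in S3 and 94.9% in S5, CHG at 90.9% and 89.8% and the asymmetric class, defined below, at 46.4% and 55.6%. Its right flank held 12 listed positions. The next in length were on Ca2 (26956986 to 26993518, 36533 bases), Ca3 (25831377 to 25863757, 32381 bases), Ca6 (6263093 to 6295121, 32029 bases) and Ca8 (10829273 to 10860726, 31454 bases). The other 5 of the 10 longest lay on Ca3, Ca1, Ca7, Ca7 and Ca1 and measured 27435 to 30961 bases.

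The surroundings of these 10 valleys differed widely. Their 20 flanks held between 12 and 481 listed positions each. The right flank of the Ca6 valley had 61 cytosines listed in all 5 libraries, all of them CG, at 95.8% in S3 and 95.8% in S5. The left flank of the valley on Ca7 at 28257503 to 28285660 carried all contexts, with CG at 93.7% and 94.2%, CHG at 90.2% and 88.5% and the asymmetric class at 41.6% and 43.7% in S3 and S5.

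At the lower limit of the rule, the shortest valleys were 5000 bases on Ca7 (from 48553476), 5001 bases on Ca4 (from 15334017) and 5002 bases on Ca5 (from 36649198). The intervals just outside it were 4999 bases on Ca1 (from 26869509) and 4997 bases on Ca5 (from 30868132) and on Ca6 (from 39023331). Listed positions per flank were 0 to 296 in these valleys and 27 to 293 in these intervals, and these ranges overlapped.

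Valleys were found on every chromosome at similar density, from 5.96 per Mb on Ca4 to 7.90 per Mb on Ca1. They took up 5.08% of the span of Ca4 and 6.89% of that of Ca7, with Ca8, which had the shortest span, at 5.78%. With each chromosome cut into 10 equal parts, the density over all 8 was 6.39 per Mb in the first part, 8.32 in the fifth and 6.25 in the last. Single chromosomes scattered more, for example from 3.53 to 11.4 per Mb in the ninth part.

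In 1 Mb bins the number of valleys moved with the amount of listed methylation around them. All 343 full bins held a valley, with a median of 7 and at most 19. In the 86 bins with the fewest listed positions outside valleys (42.2 per kb on average), there were 5.45 valleys per bin. The next 86, the 86 after these and the last 85, with 63.5, 89.0 and 107 positions per kb, held 6.17, 8.19 and 9 valleys per bin. Valleys of the 10 kb class numbered 0.279, 0.977, 1.31 and 1.60 per bin in the same order. Pearson's r between listed positions and valleys was 0.48 and Spearman's rho 0.49 over the 343 bins, which lie on the same chromosomes and share their libraries, so these values are a description.

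**Figure D2:**
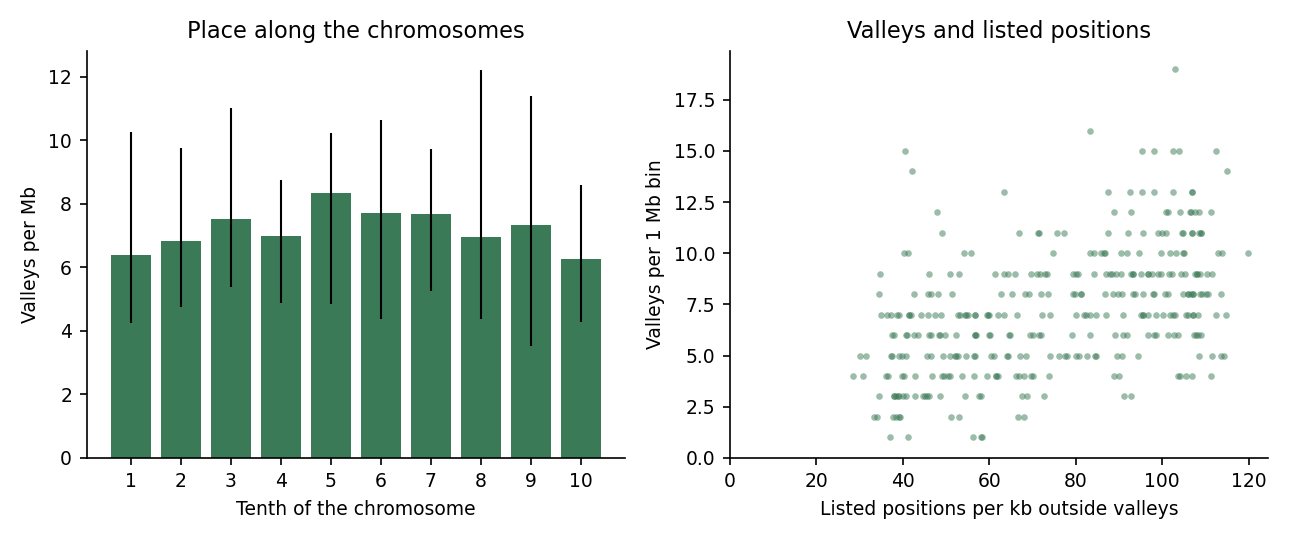
Left, valleys per Mb in 10 equal parts of the chromosomes (x axis part, y axis valleys per Mb), with bars for all 8 chromosomes together and lines from the lowest to the highest chromosome. Right, valleys in each 1 Mb bin (y axis) by listed positions per kb outside valleys (x axis, 343 bins). The bars lie between 6.25 and 8.32 per Mb, and bins with more listed positions hold more valleys.

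Neighbouring valleys were a median of 83722 bases apart (quartiles 28515 and 175901 bases). Of 2489 neighbouring pairs, 300 (12.1%) lay within 10 kb of each other and 120 within 2 kb. The closest pair was on Ca7, at 9252995 to 9258286 and 9258288 to 9264594, and was parted by a single listed cytosine of the asymmetric class that appeared in 2 libraries. A long empty stretch can thus be recorded as separate valleys because of 1 call.

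The 4994 edges were set mostly by weakly supported cytosines. The cytosine at the edge was listed in a single library at 3457 edges (69.2%), 1338 of them in S5 replicate 2 only and 487 to 563 in each other library. It was listed in all 5 libraries at 218 edges (4.37%). Median coverage was 6 reads for edge cytosines listed in 1 library and 13 reads for those listed in all 5. By context, 86.3% of edge cytosines were in the asymmetric class, 9.77% in CG and 3.92% in CHG. Context was taken from listed partners on the other strand, CG from a partner 1 base downstream and CHG from a partner 2 bases downstream. All other cytosines form the asymmetric class, which holds CHH together with CG and CHG cytosines whose partner was not listed. At an edge, a partner on the valley side cannot be listed, because the rule leaves the valley empty. Such edge cytosines fall in the asymmetric class by the choice, so the shares by context at edges are a description. Among all listed positions of Ca1 to Ca8, 15647738 of 24299017 were in the asymmetric class.

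Most valleys had at least 20 listed positions in the first 500 bases outside both edges. This held for 64.4% of valleys, and 6.81% reached the limit outside neither edge. The limit does not mark high density, since the median over edges was 53 listed positions in these bases. No share over other stretches of 500 bases is given. In the 10 kb class the share with both edges at the limit was 70.8%. Among shorter empty intervals it was 44.4% at 3 to 5 kb and 36.3% at 1 to 2 kb. No listed position lay within 500 bases of 90 edges.

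Listed cytosines were most numerous shortly beyond the edge, with similar lower numbers in the first 100 bases and in the second kb. Per edge and library, 4.80 to 5.42 cytosines were listed in the first 100 bases and 7.26 to 8.07 in the third 100 bases, and 4.79 to 5.43 per 100 bases in the second kb. Coverage showed the same order near the edge. Its median was 9 reads in every library in the first 100 bases and 10 to 12 reads in the next 100 bases. Because a call needs 5 reads, the lower number in the first 100 bases and the lower coverage there cannot be told apart.

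The level of the cytosines next to the edge also differed from that further out. Among cytosines listed in all 5 libraries, called shared cytosines, the mean CG level in the first 100 bases was 90.1% ± 0.06 (SD, n = 2) in S3 and 90.1% ± 0.26 (SD, n = 3) in S5. In the second kb it was 93.0% ± 0.21 in S3 and 93.1% ± 0.37 in S5. The asymmetric class went the other way, from 64.2% ± 0.70 in S3 and 66.6% ± 1.11 in S5 in the first 100 bases to 49.0% ± 0.74 and 53.3% ± 1.71 in the second kb. In CHG the level near the edge, 87.9% ± 0.42 in S3 and 86.0% ± 0.53 in S5, was close to that in the second kb, 88.4% ± 0.20 and 85.8% ± 0.72. Cytosines that can be CHH alone, because the next 2 bases were also listed on the same strand, showed 51.0% in S3 and 55.3% in S5 over 23 sites in the first 100 bases, and 35.9% and 42.6% over 220 sites in the second kb. Where few reads cover a cytosine, a call requires most of them to be methylated, and the part of coverage in these levels was not tested.

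**Figure D3:**
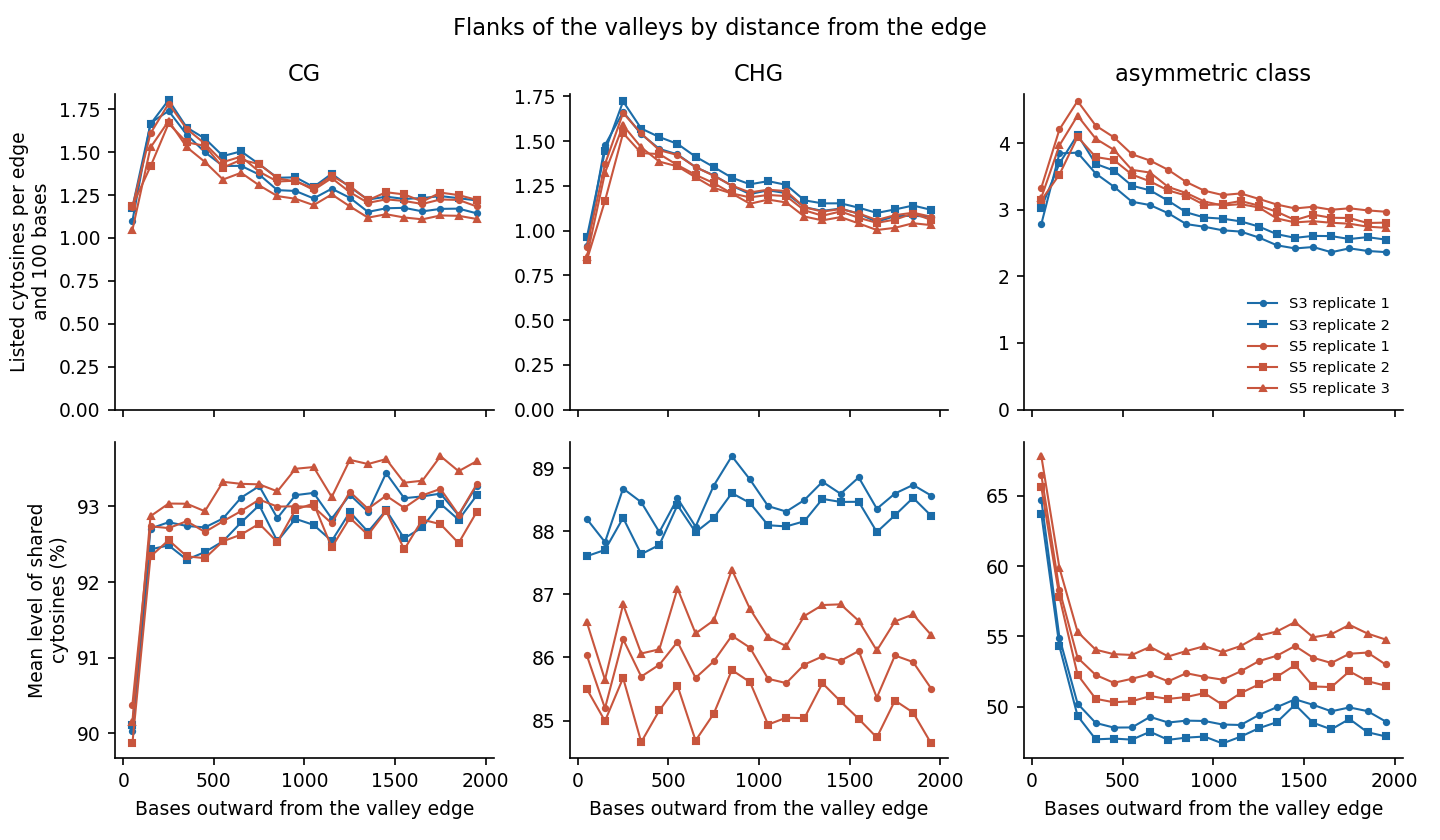
Upper panels, listed cytosines per edge and 100 bases, and lower panels, mean level of shared cytosines in percent (ranges differ between panels and do not start at 0), by distance from the valley edge in bases, for each library in CG, CHG and the asymmetric class. The number of listed cytosines is highest in the third 100 bases, the CG level is lowest and the asymmetric level highest in the first 100 bases, and the S3 libraries lie above the S5 libraries in CHG and below them in the asymmetric class at each distance.

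The 2 kb flanks covered 9.54 Mb, with overlapping flanks counted once and edge cytosines left out. They held 94.6 listed positions per kb, against 74.0 per kb in the rest of the chromosomes outside valleys. In CHG the listed density was 12.1 to 13.2 cytosines per kb of flank in the 5 libraries and 8.83 to 9.64 in the rest. In CG it was 13.0 to 14.2 against 11.4 to 13.0, and in the asymmetric class 29.1 to 35.4 against 21.9 to 28.0. In each context every library was denser in flanks than in the rest. The density beyond the edge was not itself used to choose the valleys. However, each flank starts at a listed cytosine by the rule and the rest was not chosen in this way. These densities are therefore a description.

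Shared cytosines of all contexts occurred together in most flanks. At least 5 shared cytosines in each class were found in 2802 of 4994 flanks (56.1%), against 43.4% of the 160072 tiles of 2 kb that held a listed position. At least 5 shared CG cytosines with no shared CHG or asymmetric cytosine, the make-up usual of methylated gene bodies, occurred in 163 flanks (3.26%) and 11.5% of tiles. No shared cytosine at all was found in 437 flanks (8.75%) and 9.74% of tiles. Tiles without a listed position were not counted, whereas flanks without one were, so the shares have unlike bases. They are a description, since flanks also start at a listed cytosine and tiles do not.

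The stages differed in the flanks in CHG and in the asymmetric class. CHG cytosines were methylated at 88.5% and 88.2% in S3 replicates 1 and 2 and at 85.9%, 85.2% and 86.6% in S5 replicates 1, 2 and 3, over 81624 shared sites. Both S3 libraries lay above all S5 libraries. The means were 88.4% ± 0.24 (SD, n = 2) and 85.9% ± 0.69 (SD, n = 3), a difference of -2.49 percentage points (exact permutation test, two-sided p = 0.1). With 2 and 3 libraries this is the smallest p possible, so no stage comparison of this kind can reach 0.05.

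In the asymmetric class the S3 libraries were at 50.1% and 49.1% and the S5 libraries at 53.5%, 52.1% and 55.3%, over 113878 shared sites. The stages again did not overlap, with S5 the higher. The means were 49.6% ± 0.73 (SD, n = 2) and 53.6% ± 1.63 (SD, n = 3), a difference of 4.03 percentage points (exact permutation p = 0.1). With all listed cytosines in place of shared ones the difference was 1.16 percentage points and the libraries overlapped (exact permutation p = 0.4). In CG the S3 libraries were at 92.9% and 92.7% and the S5 libraries at 92.9%, 92.6% and 93.3%, over 87275 shared sites. These overlapped, and the difference of 0.12 percentage points was smaller than the SD of either stage (exact permutation p = 0.8).

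The difference between stages had the same sign in flanks of shorter and longer valleys. In CHG it was -2.44 percentage points for valleys under 10 kb, -2.61 for the 10 kb class and -2.47 for longer valleys. In the asymmetric class it was 4.13, 3.79 and 3.83 percentage points. The asymmetric level itself was lowest beside the 10 kb class, with 46.7% ± 0.68 (SD, n = 2) in S3 and 50.5% ± 1.69 (SD, n = 3) in S5, where mean coverage of these cytosines was 40.8 to 52.7 reads, against 25.2 to 35.8 reads beside valleys under 10 kb.

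The numbers of listed cytosines in the flanks followed the levels in part. In the asymmetric class 277480 and 294440 were listed in S3 and 337671, 314095 and 318135 in S5, without overlap (exact permutation p = 0.1). In CHG 121312 and 125535 were listed in S3 and 120971, 116544 and 115220 in S5 (exact permutation p = 0.2). The gap in CHG was narrow, and with reads thinned until mean coverage of shared cytosines was 15.0 reads in S5 replicate 2 and 15.82 to 15.96 reads in the others, the difference shrank from -5845 to -372 cytosines and the libraries overlapped. In CG 128814 and 135247 were listed in S3 and 132897, 132477 and 123614 in S5, with overlap (exact permutation p = 0.7). Among all listed cytosines of the flanks, the asymmetric class made up 52.6% and 53.0% in S3 and 55.8% to 57.1% in S5. In the rest of the chromosomes this share was 50.9% and 51.6% in S3 and 54.9% to 56.3% in S5. From S3 to S5 the mean number of listed asymmetric cytosines changed by 13.1% in flanks and 18.2% in the rest. For CHG the change was -4.74% in flanks and -3.49% in the rest, where the libraries overlapped. These shifts were thus not particular to the flanks.

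The stage difference in the flanks was compared with that in the rest of the chromosomes. In the rest, shared CHG cytosines were at 88.5% ± 0.25 (SD, n = 2) in S3 and 85.6% ± 0.83 (SD, n = 3) in S5, a difference of -2.97 percentage points. The flank minus rest level of CHG was therefore negative in both S3 libraries (-0.16 and -0.14 percentage points) and positive in all S5 libraries (0.37, 0.46 and 0.18), so the difference in the flanks was smaller by 0.49 percentage points (exact permutation p = 0.1). The asymmetric difference was 4.03 percentage points in flanks and 4.50 in the rest, and that of CG was 0.12 and 0.23. The flank minus rest level differed between stages by -0.47 percentage points in the asymmetric class and by -0.11 in CG (exact permutation p = 0.2 for each), without overlap of the libraries. These contrasts are small beside the stage differences in CHG and the asymmetric class.

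The CG level was lower in flanks than in the rest in 5 of 5 libraries. Flank minus rest was -0.59 to -0.42 percentage points (mean -0.50, exact sign-flip permutation p = 0.0625, the smallest that 5 libraries allow). For the asymmetric class the direction depended on how cytosines were weighted. Over shared cytosines the flanks were lower in 5 of 5 libraries (mean -1.29 percentage points, exact sign-flip permutation p = 0.0625). They were higher over all listed cytosines (0.93), as a mean over flanks (0.90) and without cytosines above 100 reads in any library (0.24). Mean coverage of shared asymmetric cytosines was 36.1 ± 0.48 (SD, n = 2) and 32.1 ± 5.36 reads (SD, n = 3) in flanks, against 20.5 ± 0.47 and 18.6 ± 2.92 reads in the rest, and its part in this comparison was not tested beyond these values.

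**Figure D4:**
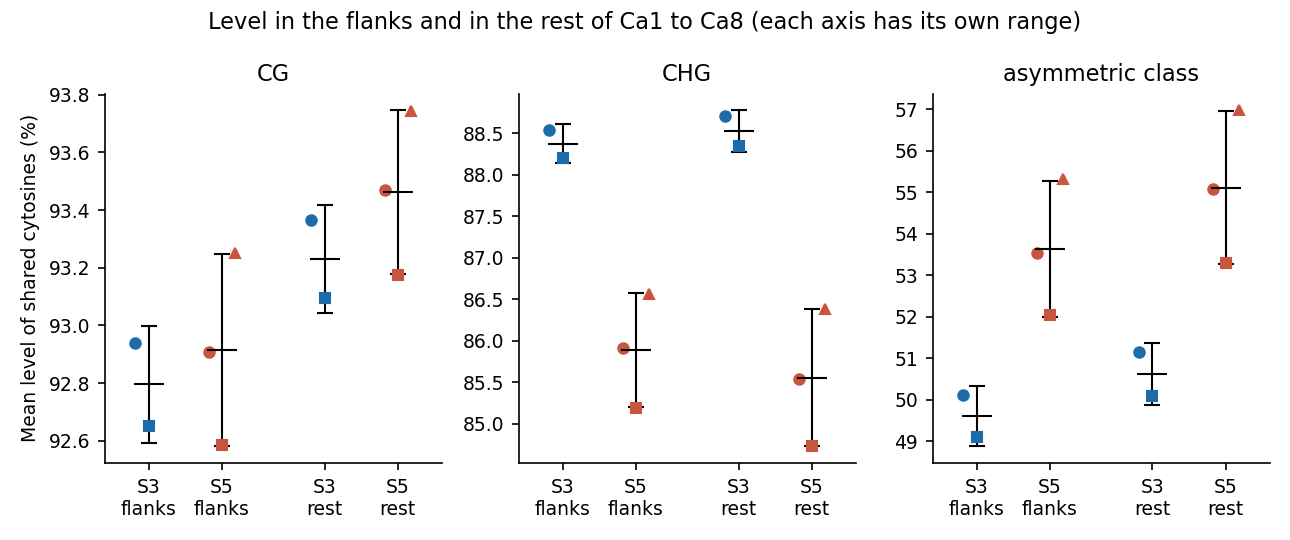
Mean level of shared cytosines in percent in the 2 kb flanks and in the rest of Ca1 to Ca8 (y axes do not start at 0 and differ), with a point for each S3 (blue) and S5 (red) library, marked as circle, square and triangle for replicates 1, 2 and 3, and the mean and SD in black. CHG lies near 88.4% in S3 and 85.9% in S5 in flanks, the asymmetric class near 49.6% and 53.6%, and the CG libraries of the stages overlap.

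Single flanks were set beside tiles of 2 kb along the chromosomes, without a test of the difference in shares. Of 3115 flanks with at least 5 shared CHG cytosines, 1313 (42.2%) had all S5 libraries below both S3 libraries and 68 (2.18%) had them above. Among tiles of the chromosomes these shares were 48.8% and 1.65%. In the asymmetric class 1610 of 3577 flanks (45.0%) had all S5 libraries above both S3 libraries and 106 (2.96%) below, against 45.1% and 3.03% of tiles. In CG 495 of 3743 flanks (13.2%) were higher in all S5 libraries and 384 (10.3%) lower, against 15.8% and 10.2% of tiles. The median difference over flanks was -2.33 percentage points in CHG, 3.70 in the asymmetric class and 0.17 in CG, beside -2.84, 4.16 and 0.26 over tiles.

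A few flanks stood far from these medians. The following had the largest stage difference in their context and direction among flanks with at least 10 shared cytosines and no overlap of stages, and are given without a test. In CG the left flank of a valley on Ca1 (26597403 to 26602954, 5552 bases) was at 83.1% and 80.0% in S3 and 64.8%, 60.5% and 62.5% in S5 over 17 sites. Its 8 CHG sites were at 77.5% and 61.1% in S3 and 64.3%, 74.6% and 65.9% in S5, with means of 69.3% and 68.3%. The S3 libraries were far apart in CHG, so whether CHG differed between the stages there cannot be told. In the opposite direction, the left flank of a valley on Ca7 (24897739 to 24907004, 9266 bases) was at 80.0% and 71.1% in S3 and 84.6%, 90.5% and 87.7% in S5 over 13 CG sites.

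In CHG the left flank of a valley on Ca7 (21202591 to 21207792, 5202 bases) was at 71.0% and 71.8% in S3 and 55.4%, 49.9% and 52.1% in S5 over 10 sites. CG there was at 88.1% in S3 and 89.6% in S5 over 18 sites, and the asymmetric class at 48.5% and 49.4% over 29 sites. The right flank of a valley on Ca2 (4156139 to 4162321, 6183 bases) was among the few with higher CHG in S5, with 75.1% and 72.9% in S3 and 82.5%, 80.4% and 76.8% in S5 over 15 sites. Its coverage was high, 29.7 to 60.1 reads on average. In the asymmetric class the left flank of a valley on Ca1 (16137186 to 16142826, 5641 bases) was at 94.1% and 78.0% in S3 and 67.8%, 54.9% and 77.2% in S5 over 10 sites, with the libraries of each stage far apart and mean coverage of 6.40 to 12.1 reads.

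Differential methylation was also tested in windows of 100 bp, moved by 50 bp, with at least 3 cytosines listed in every library. Windows were called by logistic regression on reads at q of 0.01 or less over all windows of a context and a level difference of at least 25 percentage points. This test takes no account of the spread between replicates. In the asymmetric class 163 of 31755 windows in flanks were higher in S5 and 20 lower, or 0.513% and 0.063%, against 0.583% and 0.0671% of all windows on Ca1 to Ca8 and 0.425% and 0.0492% over all sequences. In CHG 44 of 23006 windows were lower in S5 and 2 higher, or 0.191% and 0.0087%, against 0.434% and 0.00404% on Ca1 to Ca8 and 0.296% and 0.00356% over all sequences. In CG 13 of 23718 windows were lower and 4 higher, or 0.055% and 0.017%, against 0.0727% and 0.041% on Ca1 to Ca8 and 0.0506% and 0.0271% over all sequences.

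The direction of the called windows in flanks followed that of the context means in CHG and the asymmetric class. Windows that overlapped or lay within 50 bp were joined to 114 regions higher and 17 lower in the asymmetric class, 1 higher and 32 lower in CHG, and 3 higher and 9 lower in CG. A quasi-binomial test that allows for the spread between replicates called 62 asymmetric windows in flanks (0.195%, against 0.186% of windows on Ca1 to Ca8 and 0.131% over all sequences). With this test the share in flanks was above that of the chromosomes, and with logistic regression it was below, at 0.576% against 0.650% in both directions together. The quasi-binomial test called 38 CHG windows (0.165%, against 0.345% on Ca1 to Ca8 and 0.234% over all sequences) and 14 CG windows (0.059%, against 0.0816% and 0.0554%). In CHG and CG it used the same spread for all windows of a context, so the spread of a single window entered only in the asymmetric class.

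Of the 6 windows with the largest difference in each context and direction, 3 lay between the same pair of valleys on Ca1, windows that were chosen after their values were seen. The left valley spanned 25065325 to 25074943 (9619 bases) and the right one 25085368 to 25095206 (9839 bases), and the methylated segment between them was 10424 bases long. The segment was followed along its length as a description. It was chosen because the right flank of the left valley had the largest asymmetric rise among the flanks compared above. That flank was at 46.1% and 46.2% in S3 and 78.0%, 69.3% and 74.6% in S5 over 12 asymmetric sites. The asymmetric rise beside the left valley therefore follows from the choice. Over the whole segment, CG was at 94.0% in both S3 libraries and at 90.1% to 91.4% in S5 over 80 shared sites. CHG was at 91.8% and 92.1% in S3 and 86.0% to 88.8% in S5 over 121 sites. The asymmetric class was at 63.2% and 60.1% in S3 and 64.0% to 65.9% in S5 over 113 sites.

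The windows were searched within 2 kb of a valley, so their nearness to the valleys follows from the choice. In the first kb beside the left valley, 11 asymmetric sites were at 45.7% and 45.9% in S3 and 78.5%, 71.6% and 75.8% in S5. A window there (25075801 to 25075900) held 3 sites with 23 to 58 reads per library, at 19.0% and 36.4% in S3 and 74.4%, 73.9% and 76.9% in S5 (q = 4.02e-10). No CHG cytosine was listed in this first kb in any library. Next to one another, then, the first kb was higher in S5 in the asymmetric class and the second kb lower in CHG and CG.

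In the second kb, 5 CHG sites were at 72.7% and 73.9% in S3 and 23.2%, 22.1% and 27.0% in S5, and 3 CG sites were at 77.7% and 78.3% in S3 and 60.3%, 45.1% and 47.2% in S5. A CHG window (25076701 to 25076800) of 3 sites was at 70.0% and 78.4% in S3 and 18.5%, 23.9% and 24.2% in S5, with 46 to 70 reads per library (q = 1.16e-15). The number of listed cytosines differed in the same step, with 49 and 46 CHG cytosines in S3 and 33, 8 and 32 in S5, and 84 and 57 asymmetric cytosines in S3 and 28, 8 and 14 in S5. Cytosines that were no longer listed in S5 are not among the shared sites, and the shared levels leave them out.

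From the fourth to the eighth kb the stages were closer. CHG there was between 91.1% and 94.7% in S3 and between 88.2% and 94.7% in S5, with a difference of -6.17 to 0.02 percentage points per step. Near the right valley the difference returned in CG, where a window (25084201 to 25084300) of 3 sites was at 84.6% and 78.6% in S3 and 52.0%, 34.0% and 38.7% in S5 (q = 1.06e-05). In that step 56 and 53 asymmetric cytosines were listed in S3 and 21, 8 and 6 in S5, and 11 and 11 CHG cytosines in S3 and 8, 1 and 1 in S5. In the second kb and in the step of this CG window, the lower CG level was seen in each S5 library, with S5 replicate 1 the closest to S3. The last, shorter step beside the right valley went the other way. There 15 asymmetric sites were at a mean of 81.6% in S3 and 87.4% in S5, without overlap. Its 4 CG sites were at 91.5% and 94.0%, with overlap.

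**Figure D5:**
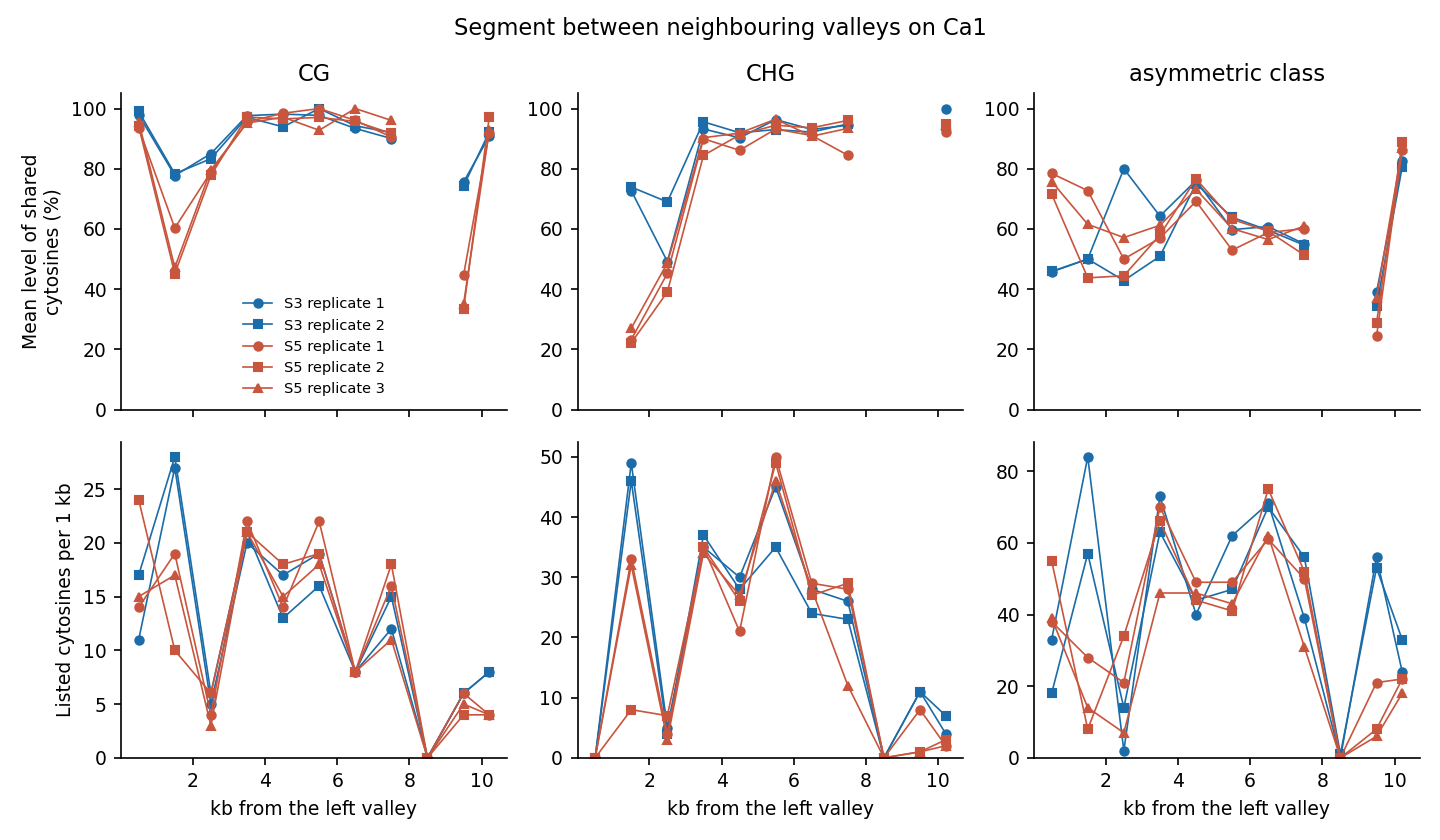
Upper panels, mean level of shared cytosines in percent, and lower panels, number of listed cytosines, in steps of 1 kb (the last step is shorter) along the 10424 bases between neighbouring valleys on Ca1, by distance from the left valley in kb, for each library and context. In the second kb CHG is near 73% in the S3 libraries and 22.1% to 27.0% in the S5 libraries, and from the fourth to the eighth kb the stages lie closer together. Gaps are steps without shared sites.

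Each library alone held more empty intervals than the union. Between 5 and 50 kb there were 4128 and 3432 in S3 replicates 1 and 2 and 3239, 2756 and 3785 in S5 replicates 1, 2 and 3. The stages overlapped, at 3780 ± 492 (SD, n = 2) and 3260 ± 515 (SD, n = 3; exact permutation p = 0.4). S5 replicate 2, the library with the fewest such intervals, also had the lowest coverage and supplied the largest number of edge cytosines of its own. Between 60.2% and 90.1% of the intervals of a library contained a valley of the union. Joined by stage, 3203 intervals were empty in both S3 libraries and 2587 in all 3 S5 libraries, and each pair of S5 libraries gave fewer than the S3 pair, at 2640 to 3041.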

How the data were processed

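Members and lists were chosen with earlier results of these data known. The authors filtered reads in NGS QC Toolkit, aligned them with Bismark (version 0.14.3 per the submitters' processing notes) to the kabuli genome version 1, and called a methylcytosine if it had 5 reads and its binomial p against the chloroplast error rate did not exceed 0.0001. Per cytosine, the deposited files give coverage as a read count and the percent of reads with C, here called the level. Methylated reads were the product of both, rounded. Replicates were deposited separately and grouped by their labels.

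Positions of the 5 libraries on Ca1 to Ca8 were joined, and intervals of 5 to 50 kb without a listed position were kept. Flanks reached 2 kb outward of each edge cytosine, which was left out. Positions on more than 1 line (240 on Ca1 to Ca8) were left out of levels. Shared cytosines were listed in all 5 libraries. Cytosines unlisted in any library do not enter shared levels. Stages were compared by exact permutation over 10 splits (Python 3.11.15), and windows by logistic regression, or a quasi-binomial test moderated with limma 3.58.1 in R 4.3.3, with Benjamini-Hochberg q over all windows. The window test was tested on simulated reads without added spread between replicates, so its behaviour under such spread was not tested. Regions named were the 10 longest valleys, the 3 on either side of 5 kb, the closest pair, and the flank with the largest difference per context and direction. Reads are not independent molecules, and depth of unlisted cytosines is unknown. Alternatives covered depth, flank and valley length, cytosines used, replicates left out and the replicate block. The annotation at hand belongs to another build and was not used here.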

Additional observations from a re-analysis of the deposited data

Results flagged for a closer look

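At shared cytosines, the CHG level in the flanks stood on opposite sides of the rest of the chromosomes in the 2 stages. Flank minus rest was -0.16 and -0.14 percentage points in the S3 libraries and 0.37, 0.46 and 0.18 percentage points in the S5 libraries, a difference between stages of 0.49 percentage points (exact permutation p = 0.1, the smallest possible). The stage difference kept this direction under every alternative computed for it, at 0.25 to 0.77 percentage points, but the flank minus rest level over all 5 libraries did not keep one sign. The opposite sides were not seen over all listed cytosines. There flank minus rest was positive in 5 of 5 libraries, with means of 0.46 percentage points in S3 and 0.89 in S5.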

How the results depend on the processing

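Of 227 values recomputed under alternatives, 13 changed direction and 13 counts moved by more than 1.5 times. The number of valleys was 2529 to 2784 (22.0 to 23.8 Mb) when a library was left out, the highest without S5 replicate 2. It was 6624 (37.1 Mb) from 3 kb and 831 (10.2 Mb) from 10 kb. With each library left out in turn, the S5 minus S3 difference in flanks ranged from -0.0505 to 0.28 percentage points in CG, from -2.82 to -2.14 in CHG and from 3.19 to 4.82 in the asymmetric class, and listed CG cytosines from -5584 to 849. Called windows ranged from 15 to 24 in CG, 33 to 56 in CHG and 180 to 274 in the asymmetric class. The CG difference in flanks was -0.14 over all listed cytosines, and listed CG cytosines differed by 3984.5 cytosines after thinning. Over 5 libraries, flank minus rest in CHG was -0.0703 beside valleys of 10 kb or longer and -0.0549 after thinning, and in the asymmetric class 0.24 without cytosines above 100 reads, 0.93 over all listed cytosines and 0.90 as a mean over flanks. A difference of 40 percentage points left 0, 3 and 6 called windows in CG, CHG and the asymmetric class, and 5 cytosines per window left 1 of 9934, 11 of 10310 and 71 of 16641 tested. At 10 reads fewer windows were tested, and 25 of 10532 CHG (0.237%, against 0.200% before) and 93 of 19165 asymmetric windows (0.485%, against 0.576%) were called. The quasi-binomial test called 62 asymmetric windows. The cause of the other shifts was not tested. The labels do not say that replicate numbers pair the libraries, and deviations of same-numbered libraries correlated at 0.01 and 0.02 over 74159 tiles. With the replicate block, the CG difference was -0.0505 percentage points and listed CG differed by 656.5 cytosines, and 17 CG, 56 CHG and 172 asymmetric windows were called. Thinning, the high-coverage limit, flanks without their first 100 bases, the 10 kb class left out and the alternatives of flank against rest were chosen after the data were seen. Depth limits every value, since 5 reads are needed for a call and S5 replicate 2 was shallowest.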
